A study of Mus musculus with 8 samples.

Results

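The genes described here encode lysosomal proteases, namely the cathepsins Ctsa, Ctsb, Ctsc, Ctsd, Ctsh, Ctsk, Ctsl, Ctss and Ctsz and the asparaginyl protease legumain, Lgmn. They were taken by name from the probesets whose annotation names 1 of these symbols alone. All 10 of the 10 named genes had such a probeset, each gene exactly 1, out of 19752 genes named in the same way. All 10 stayed above a filter that left out probesets with a mean log2 intensity over the 8 arrays below 6.35, which kept 15007 genes. The samples were whole tibialis anterior muscles of male C57BL/6 mice, taken 8 days after freezing injury with a cold metal probe held in place for 8 seconds. The 4 ST2 flox samples came from Foxp3-Cre/ST2 flox mice and the 4 ST2 WT samples from Foxp3-Cre/ST2 WT mice, so both groups carry Foxp3-Cre. Their age was 10 weeks by the sample labels and 2 months by the series text. Foxp3 drives Cre in regulatory T cells, a small part of a whole muscle, and the floxed gene itself is not analysed here, so no check of the deletion is given. The labels number the samples but do not say that each came from its own animal, so the spread behind each p-value may be technical in part or in whole.

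Cathepsins are made as inactive precursors, sorted to the lysosome and activated there by acid and by other proteases. Most are cysteine proteases that cut within proteins or trim their ends, while Ctsd is an aspartic protease and Ctsa a serine carboxypeptidase. Legumain cuts after asparagine and also processes several cathepsins to their mature forms. In injured muscle, macrophages use these enzymes to digest dead fibres, antigen-presenting cells use them to cut the invariant chain of class II molecules, and stromal cells use some of them to degrade collagen.

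The array comparison asks how muscle repair differs when regulatory T cells lack ST2, the receptor of interleukin-33. The deposited values are RMA probeset intensities, a summary of the probes of each set after normalization between arrays, and they are given here as log2. Median intensity was 185 to 189 per array. Mature fast muscle fibre markers were all above the filter (7 of 7 genes), and their summed intensity was 67673 to 74759 in flox and 69980 to 74886 in WT muscle. Levels of different genes are not set against each other, since probesets differ in brightness for reasons other than the amount of RNA.

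No cathepsin passed the test between the genotypes, although 9 of the 10 genes had a higher mean in flox muscle. The median difference of the 10 genes was 0.12 log2, flox minus WT, against -0.002 over all genes tested, where 48.8% of genes had a higher mean in flox. Ctsh, Ctss and Lgmn had the widest differences, at 0.32, 0.25 and 0.16 log2. In limma 0 members passed an adjusted p of 0.05, as did 0 of all 15007 genes (0%), and 0 members had an unadjusted p under 0.05, against 3.79% of all genes. The groups overlapped for all 10 genes, while flox lay wholly above WT for 1.14% of all genes. On at least 3 of the 4 flox arrays, 5 members exceeded every WT array, against 11.0% of all genes. In whole tissue, a change in the number of cells of a type and a change in RNA per cell cannot be told apart.

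**Figure D1:**
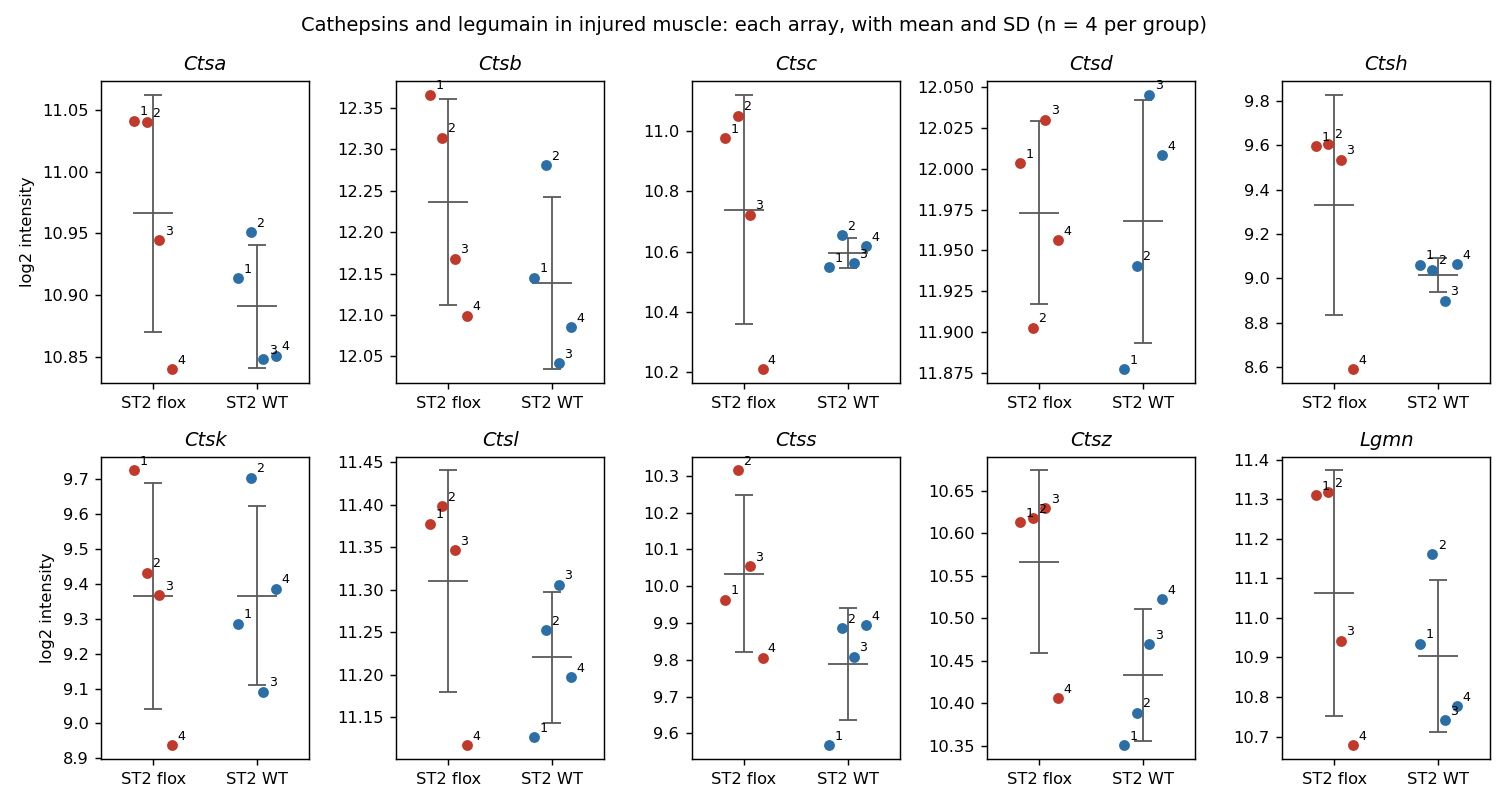
Log2 intensity of each of the 10 genes on the 4 ST2 flox arrays (red, left) and the 4 ST2 WT arrays (blue, right), with the array number beside each point and bars for the mean and SD; the vertical axes differ between panels and do not start at 0. Flox array 4 is the lowest of the 8 arrays for 6 genes, and on flox arrays 1 to 3 Ctsh lies between 9.53 and 9.61, above the WT arrays.

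Among the enzymes that trim protein ends, Ctsh, an aminopeptidase, showed the widest split within a genotype. Its log2 intensity was 9.60, 9.61, 9.53 and 8.59 on flox arrays 1 to 4, against 9.06, 9.04, 8.90 and 9.06 on WT arrays 1 to 4. Flox arrays 1 to 3 were above all WT arrays and flox array 4 was below all of them. The means were 9.33 ± 0.50 in flox and 9.02 ± 0.08 in WT (SD, n = 4 each), a difference of 0.32 log2 or 1.24-fold (SE 0.20, limma adjusted p 0.912).

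Ctsc, the dipeptidyl peptidase that activates granule serine proteases of leukocytes, had the same arrangement. It measured 10.98, 11.05, 10.72 and 10.21 on flox arrays 1 to 4, against 10.55, 10.65, 10.56 and 10.62 on the WT arrays. The WT arrays lay within 0.105 log2 of each other, while the flox arrays spanned 0.844 log2 on both sides of them. The difference of the means was 0.14 log2 (SE 0.15, limma adjusted p 0.915).

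Ctsz, a carboxypeptidase, was also highest on flox arrays 1 to 3, within a narrower range. The values were 10.61, 10.62, 10.63 and 10.41 on flox arrays 1 to 4 and 10.35, 10.39, 10.47 and 10.52 on WT arrays 1 to 4. Flox array 4 fell among the WT arrays. The difference was 0.13 log2 (SE 0.07, limma adjusted p 0.912). Ctsb, which trims carboxyl ends and also cuts within proteins, measured 12.37, 12.31, 12.17 and 12.10 in flox muscle, against 12.15, 12.28, 12.04 and 12.09 in WT muscle. Only flox arrays 1 and 2 exceeded all WT arrays, and the difference was 0.10 log2 (SE 0.08, limma adjusted p 0.912).

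Among the endopeptidases, Ctss, which cleaves the invariant chain in antigen-presenting cells, had the smallest unadjusted p of the 10 genes. It measured 9.96, 10.31, 10.05 and 9.81 on flox arrays 1 to 4, against 9.57, 9.89, 9.81 and 9.89 on WT arrays 1 to 4. The groups overlapped through flox array 4 alone, and WT array 1 was the lowest of all. The means were 10.03 ± 0.21 in flox and 9.79 ± 0.15 in WT (SD, n = 4 each), a difference of 0.25 log2 or 1.19-fold (SE 0.11, limma p 0.0502 unadjusted and 0.912 adjusted). Without flox array 2 that difference was 0.15.

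Ctsl, a broadly expressed endopeptidase of the lysosome, measured 11.38, 11.40, 11.35 and 11.12 in flox muscle, against 11.13, 11.25, 11.31 and 11.20 in WT muscle. As for Ctsh and Ctsc, flox arrays 1 to 3 were above all WT arrays and flox array 4 was the lowest of all, an arrangement that 3 members and 4.13% of all genes had. The difference was 0.09 log2 (SE 0.07, limma adjusted p 0.912).

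Ctsk, the collagen-degrading cathepsin known best from osteoclasts, did not follow its neighbour Ctss. In RefSeq (GRCm38.p6) these genes lie side by side with only the predicted gene Gm40096 between them. Ctsk measured 9.72, 9.43, 9.37 and 8.94 on flox arrays 1 to 4, against 9.29, 9.70, 9.09 and 9.39 on WT arrays 1 to 4. Both genotypes spread widely and overlapped over most of their range, and the means were 9.37 ± 0.32 in flox and 9.37 ± 0.26 in WT (SD, n = 4 each). The 95% interval of the difference ran from -0.37 to 0.36 log2, so these arrays do not exclude a change of that size in either direction. The difference between Ctss and Ctsk was not tested.

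Ctsd, the aspartic cathepsin, had a difference of 0.01 log2 with the narrowest spread in flox of the 10 genes. It measured 12.00, 11.90, 12.03 and 11.96 in flox muscle, against 11.88, 11.94, 12.05 and 12.01 in WT muscle. Every flox array fell within the range of the WT arrays. The 95% interval of the difference was -0.13 to 0.14 log2 (limma adjusted p 0.991). Ctsa, the serine carboxypeptidase that also protects other lysosomal enzymes from breakdown, measured 11.04, 11.04, 10.94 and 10.84 in flox muscle, against 10.91, 10.95, 10.85 and 10.85 in WT muscle. Flox arrays 1 and 2 were above all WT arrays and flox array 4 just below them, at a difference of 0.08 log2 (SE 0.06, limma adjusted p 0.912).

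Lgmn, the asparaginyl endopeptidase, measured 11.31, 11.32, 10.94 and 10.68 on flox arrays 1 to 4, against 10.93, 11.16, 10.74 and 10.78 on WT arrays 1 to 4. Flox arrays 1 and 2 were highest and flox array 4 lowest, with flox array 3 inside the WT range. The means were 11.06 ± 0.31 in flox and 10.90 ± 0.19 in WT (SD, n = 4 each), a difference of 0.16 log2 (SE 0.15, limma adjusted p 0.912).

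Flox muscle was the more variable group for these genes. The SD was larger in flox than in WT for 9 of the 10 genes, all but Ctsd, as it was for 66.1% of all genes. The median SD of the 10 genes was 0.17 log2 in flox and 0.08 in WT, against 0.11 and 0.08 over all genes. Flox array 4 was the lowest of the 8 arrays for 6 members (Ctsa, Ctsc, Ctsh, Ctsk, Ctsl and Lgmn), against 18.4% of all genes. Flox array 1 or 2 was the highest of the 8 for 8 members, against 34.8% of all genes.

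Each array was therefore left out in turn. Without flox array 4, each of the 10 genes was higher on average in flox, and 6 members had an unadjusted limma p under 0.05 in that direction, against 10.6% of all genes. These were Ctsc, Ctsh, Ctsl, Ctss, Ctsz and Lgmn. Ctsh alone of the 10 then passed the adjusted threshold, as did 0.0133% of all genes, at 0.56 log2 or 1.48-fold (SE 0.06, limma adjusted p 0.0271). By size of the difference, Ctsc at 0.32 log2 (SE 0.08, limma adjusted p 0.139) and Ctss at 0.32 log2 (SE 0.10, limma adjusted p 0.157) came after Ctsh. The median difference of the 10 genes was 0.17 in that fit, against 0.07 when flox array 1 or flox array 2 was the one left out.

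**Figure D2:**
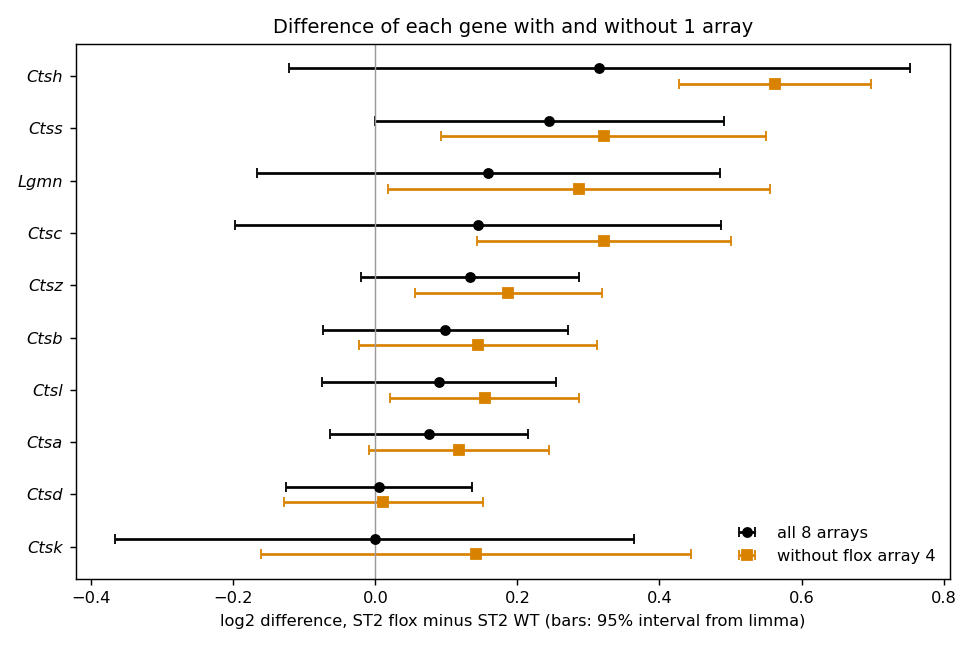
Log2 difference, ST2 flox minus ST2 WT, of each gene with its 95% interval from limma, over all 8 arrays (black circles) and without flox array 4 (orange squares). Over all arrays every interval includes 0, and without flox array 4 the intervals of Ctsh (0.43 to 0.70), Ctsc, Ctss, Ctsz, Ctsl and Lgmn lie above 0.

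The other arrays moved the genes less, with exceptions. In the 7 remaining fits, each without 1 array, 0 members passed the adjusted threshold, and an unadjusted p under 0.05 was met by Ctss alone, without WT array 4 (0.28 log2, against 1.79% of all genes higher at that p). For 8 genes, all but Ctsd and Ctsk, the flox mean was the higher in each of the 8 fits that leave out an array. Ctsd was lowest at -0.025 when WT array 1 was left out and highest at 0.031 when WT array 3 was. Ctsk was lowest at -0.12 when flox array 1 was left out and highest at 0.14 when flox array 4 was. Ctsc was 0.04 without flox array 2, Lgmn 0.07 and Ctsh 0.22 without flox array 2, and Ctsb 0.06 and Ctsa 0.05 without flox array 1. Without WT array 1, Ctsl was at 0.06 and Ctss at 0.17.

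**Figure D3:**
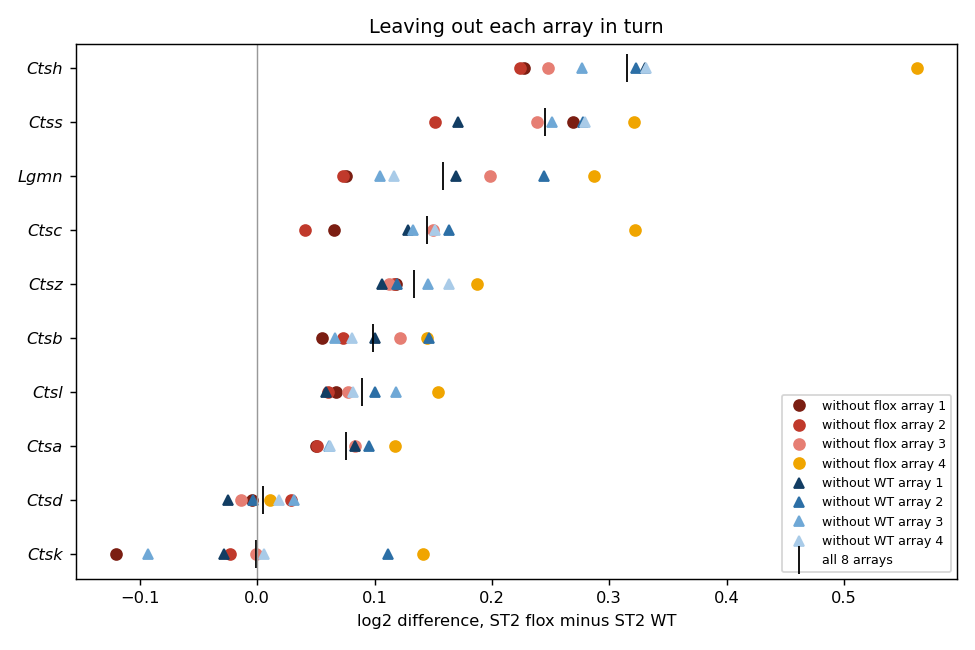
Log2 difference, ST2 flox minus ST2 WT, of each gene in fits that leave out 1 array (circles for flox arrays, triangles for WT arrays) and over all 8 arrays (black bars). Leaving out flox array 4 gives the highest value for 8 of the 10 genes, and for Ctsd and Ctsk the points lie on both sides of 0.

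Most of the genes moved together from array to array. Over the 45 pairs of members the median Pearson r across the 8 arrays was 0.70, and about the group means it was 0.66. The closest pairs were Ctsa with Lgmn (r = 0.97) and Ctsb with Lgmn (r = 0.97). Ctsc and Ctsh, whose flox arrays spread most, followed each other at r = 0.93. The loosest pairs without Ctsd were Ctsk with Ctss and Ctsk with Ctsz, each at r = 0.34. Ctsd had an r of -0.04 with the mean of the other 9 genes, whereas theirs ran from 0.69 for Ctss to 0.95 for Ctsc. These values describe 8 arrays normalized together and carry no test. They all include flox array 4, the lowest array for 6 members. Values without it, and values for pairs of other genes, are not given.

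Windows before the annotated gene starts were searched for short motifs. RefSeq windows were held for 8 of the 10 genes, and Ctsb and Ctsh have no window here. The E-box CACGTG, the core of the CLEAR element through which TFEB and its relatives act on lysosomal genes, was sought on both strands in the 250 bases before each start. It occurred for 4 of the 8 members (Ctsa, Ctsd, Ctsl and Lgmn), against 6.86% of all genes with a window. The longer form TCACGTG, which contains the E-box, occurred for 3 of them (Ctsa, Ctsd and Lgmn), against 3.58% of all genes. The motif GAGGAA, the core of sites bound by the macrophage factor PU.1, occurred for Ctsc, Ctsk and Ctss, 3 of the 8, against 25.9% of all genes. Whether any of these motifs bears on how the genes moved from array to array was not tested. Such a match is a run of letters and not a measured binding site. The E-box was sought because it is known from lysosomal genes, so its share among the members is a description and was not tested. The windows with the E-box of Ctsd, which stood apart, and of Ctsa and Lgmn, the closest pair, are shown on the strand of the gene, from 5′ to 3′, with the E-box in capitals.
Ctsd (GRCm38.p6, chr7:142387828-142388077, minus strand): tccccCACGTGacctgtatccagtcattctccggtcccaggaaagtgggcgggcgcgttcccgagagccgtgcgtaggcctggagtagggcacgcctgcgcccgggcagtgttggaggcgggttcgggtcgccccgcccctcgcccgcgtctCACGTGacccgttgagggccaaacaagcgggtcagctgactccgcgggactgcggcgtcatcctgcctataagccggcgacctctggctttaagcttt
Ctsa (GRCm38.p6, chr2:164833523-164833772, plus strand): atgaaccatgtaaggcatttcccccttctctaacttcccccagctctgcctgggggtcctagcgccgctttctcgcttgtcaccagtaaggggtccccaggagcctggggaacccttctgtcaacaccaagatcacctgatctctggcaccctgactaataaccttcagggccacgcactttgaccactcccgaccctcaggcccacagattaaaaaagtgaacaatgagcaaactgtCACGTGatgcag
Lgmn (GRCm38.p6, chr12:102439093-102439342, minus strand): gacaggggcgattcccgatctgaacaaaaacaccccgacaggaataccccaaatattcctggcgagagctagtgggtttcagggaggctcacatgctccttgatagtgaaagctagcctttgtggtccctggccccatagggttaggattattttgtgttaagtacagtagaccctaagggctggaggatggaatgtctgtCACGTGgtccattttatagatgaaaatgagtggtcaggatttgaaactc
In Ctsd the E-box begins 245 and 98 bases before the start. In Ctsa it begins 12 bases and in Lgmn 49 bases before the start, and each of these starts lies inside the gene, downstream of another annotated start whose window lacks the motif. In the window of Ctsl, which is not shown, it begins 236 bases before the start.

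Macrophage markers moved with these genes. Of 17 macrophage and monocyte markers, all 17 were above the filter and 16 had a higher mean in flox, with a median difference of 0.17 log2. Their mean, after centring each gene, was 0.34, 0.37, 0.04 and -0.41 on flox arrays 1 to 4, against -0.11, 0.04, -0.16 and -0.11 on WT arrays 1 to 4. The mean of the 10 proteases was 0.20, 0.20, 0.08 and -0.23 on flox arrays 1 to 4, against -0.11, 0.03, -0.11 and -0.06 on WT arrays 1 to 4. Both were highest on flox arrays 1 and 2 and lowest on flox array 4. The summed intensity of the macrophage markers was 12849 to 20913 in flox and 14518 to 17591 in WT muscle. Across the 8 arrays the protease mean followed the macrophage mean with a Pearson r of 0.98 and a Spearman rho of 0.98, and with r = 0.97 without flox arrays 2 and 4, the arrays farthest from the median. About the group means r was also 0.98. Other lists also moved with the protease mean. Its r was 0.96 with the hydrolases outside the cathepsins, 0.90 with lysosomal membrane proteins and 0.89 with the mean of TFEB and its relatives. It was 0.86 with class II presentation genes and 0.84 with fibroblast markers, against 0.04 with osteoclast and -0.51 with mature fast fibre markers. Of TFEB and its relatives, 3 had a higher mean in flox and Tfeb a lower one (-0.09 log2). The 0.89 belongs to their list mean and does not describe Tfeb alone. The r of 0.98 is a description, from 1 of 19 lists set beside the proteases. The part of macrophage content in the differences was not tested.

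**Figure D4:**
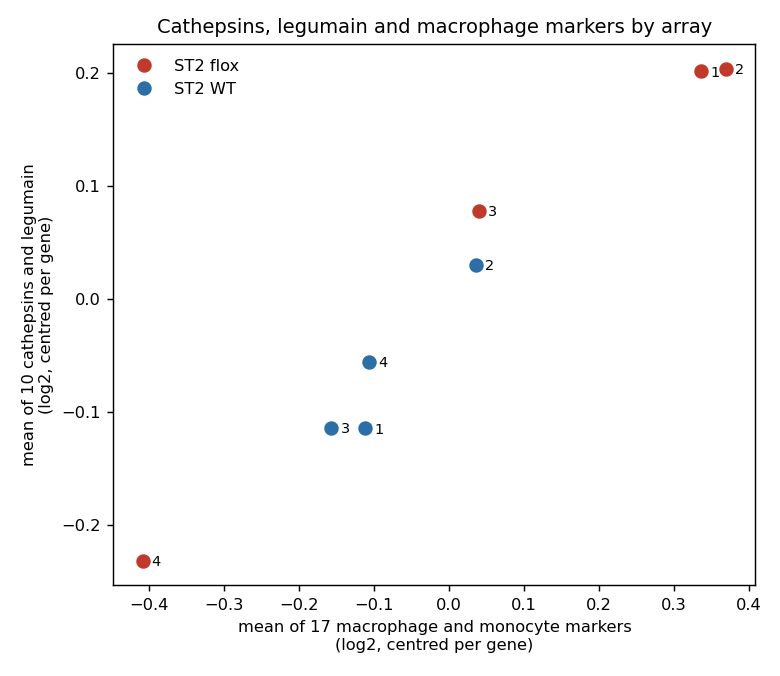
Mean of the 10 cathepsins and legumain against the mean of 17 macrophage and monocyte markers, both in log2 after centring each gene, for the ST2 flox (red) and ST2 WT (blue) arrays with their numbers. The arrays lie along a line with flox array 4 at the lower end (-0.41, -0.23) and flox arrays 1 and 2 at the upper end.

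Single genes were also set beside each marker list. Ctsc had an r of 0.99 with the macrophage mean, Ctsa 0.94, Lgmn 0.93 and Ctsh 0.92. Ctsb had 0.86, Ctsl 0.84, and Ctss and Ctsz 0.69 each. Ctsc also had an r of 0.97 with the hydrolases outside the cathepsins. Ctsk had a higher r with the mean of 8 fibroblast markers (0.89) than with the macrophage mean (0.78), and an r of 0.08 with 8 osteoclast markers. The fibroblast markers ranged widely among flox arrays, at 0.29, 0.02, 0.12 and -0.39 on arrays 1 to 4, against -0.09, 0.10, -0.07 and 0.01 on the WT arrays. Ctsd had its highest r with the 7 mature fast fibre markers (0.77) and an r of -0.11 with the macrophage mean. With the class II presentation genes r was 0.90 for Ctsl and for Ctsc, 0.87 for Ctsh and 0.84 for Ctsz. It was 0.81 for Ctsa, 0.78 for Ctss, 0.72 for Lgmn, 0.63 for Ctsb, 0.41 for Ctsk and 0.06 for Ctsd. With the T and NK cell markers r was 0.88 for Ctsh, 0.86 for Ctsz and 0.75 for Ctss. Whether these values of r differ was not tested.

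The genes most like the mean of the proteases, out of all genes tested, were Ptprc, the pan-leukocyte phosphatase CD45 (r = 0.99 over the 8 arrays), Anxa1, the anti-inflammatory protein annexin A1 (0.99), Dock11 (0.99), App (0.99) and Cybb, the catalytic subunit of the phagocyte oxidase (0.99). Ptprc measured 9.51, 9.58, 9.36 and 8.81 on flox arrays 1 to 4, against 8.99, 9.20, 9.02 and 9.11 on WT arrays 1 to 4. Like Ctsh, it was above all WT arrays on flox arrays 1 to 3 and below them on flox array 4. An r above 0.9 with the protease mean was found for 4.12% of all genes tested. Other genes moved as closely in the opposite direction, namely 4930438A08Rik (r = -0.99), Cnnm1, Wrnip1, Spaca4 and Olfr324 (r = -0.98 each).

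Other parts of the lysosome were described in the same way. Of 32 tested hydrolases and their activators outside the cathepsins, 25 had a higher mean in flox, with a median difference of 0.06 log2. An unadjusted p under 0.05 was met by 1 of the 32, against 3.79% of all genes. That gene was Gm2a, the activator of ganglioside breakdown, which measured 10.94, 11.04, 10.90 and 10.68 in flox muscle, against 10.59, 10.72, 10.72 and 10.72 in WT muscle (0.21 log2, SE 0.08, limma adjusted p 0.912). On 3 flox arrays it exceeded all WT arrays, as did Ctss and other hydrolases, among them Gusb and Pla2g15. Over all genes, 11.0% did so on 3 or more flox arrays. The glucuronidase Gusb differed by 0.13 log2 (SE 0.06) and the phospholipase Pla2g15 by 0.13 log2 (SE 0.09).

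Lysosomal membrane proteins had a median difference of 0.01 log2, with 12 of 18 higher in flox and 0 at an unadjusted p under 0.05. Their leading genes were the chloride exchanger Clcn7 (0.12, SE 0.07), the nucleoside transporter Slc29a3 (0.16, SE 0.09) and the cholesterol carrier Npc2 (0.15, SE 0.09), a soluble protein kept in this list. Of the 15 tested subunits of the proton pump that acidifies the lysosome, 13 were higher in flox, at a median of 0.04 log2. Its catalytic subunit Atp6v1a was above every WT array on all 4 flox arrays, as were 1.14% of all genes. It measured 9.72, 9.75, 9.59 and 9.61 in flox muscle, against 9.46, 9.56, 9.46 and 9.55 in WT muscle (0.16 log2, SE 0.06, limma adjusted p 0.912). Among the pump subunits Atp6v0d1 differed by 0.12 log2 (SE 0.08) and Atp6v0e by 0.09 log2 (SE 0.08). In limma 0 genes of these lists passed the adjusted threshold.

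**Figure D5:**
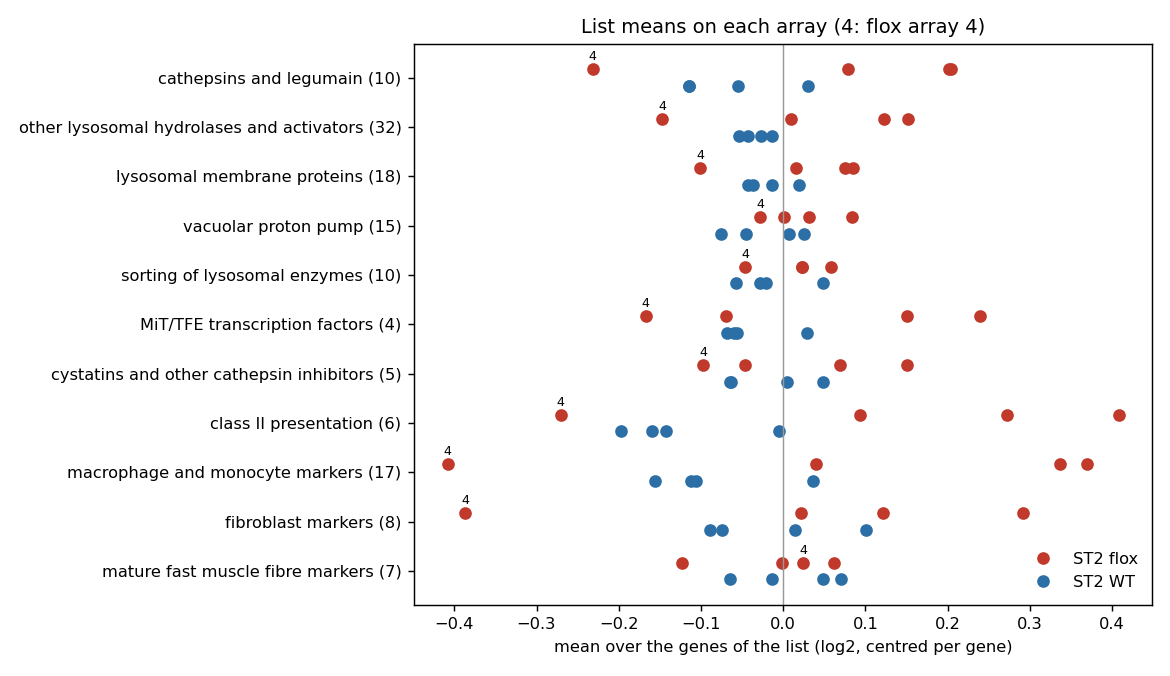
Mean over the genes of each list, in log2 after centring each gene, on every ST2 flox (red, upper) and ST2 WT (blue, lower) array, with the number of genes tested in parentheses and flox array 4 marked. Flox array 4 is the lowest array for the cathepsins and legumain (-0.23), the macrophage markers (-0.41), the fibroblast markers (-0.39) and class II presentation (-0.27). It is also the lowest for the hydrolases, the membrane proteins, the MiT/TFE factors and the cathepsin inhibitors. It is not the lowest for the proton pump, the sorting genes or the mature fibre markers.

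Genes that sort enzymes to the lysosome were higher in flox for 8 of 10, at a median of 0.03 log2, with the adaptor Gga2 at 0.11 (SE 0.06), the mannose 6-phosphate receptor Igf2r at 0.11 (SE 0.07) and Gga1 at -0.05 (SE 0.06). Of the 4 MiT/TFE factors, the transcription factors that bind the CLEAR element, 0 had an unadjusted p under 0.05. Tfec, the member found mainly in macrophages, measured 7.84, 7.89, 7.38 and 7.30 on flox arrays 1 to 4, against 7.29, 7.56, 7.13 and 7.22 on WT arrays 1 to 4. Only flox arrays 1 and 2 exceeded all WT arrays, at a difference of 0.30 log2 (SE 0.14, limma adjusted p 0.912). Tfeb differed by -0.09 (SE 0.07) and Tfe3 by 0.08 (SE 0.11).

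Inhibitors of the cathepsins did not move as a group, with 3 of 5 tested genes higher in flox and a median of 0.03 log2. Cstb, an inhibitor that acts inside cells, measured 10.00, 10.08, 9.62 and 9.53 in flox muscle, against 9.58, 9.67, 9.60 and 9.25 in WT muscle (0.28 log2, SE 0.13, limma adjusted p 0.912). Flox arrays 1 and 2 were above all WT arrays and the others were not. Cst6 differed by -0.12 log2 (SE 0.11) and Cst7 by -0.08 log2 (SE 0.08). Of the other cathepsins of somatic tissues, Ctsw (0.12, SE 0.08), Ctso (0.09, SE 0.12) and Ctsf (0.02, SE 0.08) were tested, and 0 had an unadjusted p under 0.05. Without flox array 4 the difference of Ctso, flox minus WT, was 0.22 log2. Of the cathepsins of the mouse placenta, 7 of 9 had a probeset naming them alone and 1 of these was above the filter, Ctsll3 (-0.12, SE 0.06).

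Class II presentation genes, whose products are processed with the help of Ctss and Ctsl, were higher in flox for 6 of 6 tested, at a median of 0.30 log2. An unadjusted p under 0.05 was met by 2 of the 6, against 3.79% of all genes. H2-Ab1, a class II beta chain, measured 11.76, 11.96, 11.63 and 11.13 on flox arrays 1 to 4, against 11.25, 11.22, 11.44 and 11.40 on WT arrays 1 to 4 (0.29 log2, SE 0.15). The others named were H2-Eb1 (0.32, SE 0.11) and the class II regulator Ciita (0.16, SE 0.06). Like Atp6v1a, Ciita was above every WT array on all 4 flox arrays, as were 1.14% of all genes. The macrophage markers with the smallest p were Cd14 (0.24, SE 0.09), the lysosomal glycoprotein Cd68 (0.20, SE 0.11) and Ms4a7 (0.22, SE 0.14). In limma 0 of these genes passed the adjusted threshold, each with an adjusted p of 0.912.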

How the data were processed

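Whole muscle RNA of 4 ST2 flox and 4 ST2 WT samples was hybridised to Affymetrix Mouse Gene 1.0 ST arrays after amplification with an Ambion kit, per the labels' protocols. The authors deposited 1 table of probeset intensity values on a linear scale, from 5.81 to 19080, made with RMA in Affymetrix Power Tools per the submitters' processing notes. The versions, the genome build and possible row filters are not stated in what was used here. RMA dampens the changes of dim probesets, and it would hide a shift common to most transcripts. For arrays, their number limits the precision.

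Here the base 2 logarithm was taken without a pseudocount. Of 24922 rows, 21425 had 1 gene symbol, 1399 several and 2098 none in the platform annotation. Of the rows with 1 symbol, 21347 had a gene identifier in the RefSeq table of GRCm38.p6, and 0 symbols changed. Rows with a mean below the 25th percentile (log2 6.35) were left out and the brightest row per gene was kept. Groups were compared in R 4.3.3 with limma 3.58.1 (group alone, empirical Bayes) and Benjamini-Hochberg adjustment over all 15007 genes at 0.05, a fit that was tested on simulated data. The members and the 19 other lists (201 entries, 164 tested) were chosen with earlier results of these data known. Beside the members, the genes named were up to 3 per list with the smallest unadjusted p. For marker lists other than macrophages, only the list is described. The 5 genes with the highest r with the member mean were also named, and the 5 with the lowest. The lists for fibroblasts, mature fibres, dendritic cells, neutrophils, osteoclasts, T and NK cells, endothelium, regenerating fibres and keratinocytes are given in the closing section. Alternatives covered normalization, filter, rows per gene, prior, scale, left-out arrays, sample number as a block and numbers 1 and 2 against 3 and 4 as a term. Promoter windows are from RefSeq, GRCm38.p6. The r across genes between the deviations of same-numbered samples was -0.002, 0.35, 0.25 and 0.04 for numbers 1 to 4. Samples of unlike number were not compared in this way, so these values cannot settle whether the numbers mark pairs. The main fit did not take them as pairs, and the fit with sample number as a block is given among the alternatives.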

Additional observations from a re-analysis of the deposited data

Results flagged for a closer look

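Of 20 combinations of a gene and a genotype examined for a sample far from the others, 3 stood out because the gap to the nearest sample took up most of the range of the group (Dixon test at 95%). Chance gives about 1 in 20. Ctsh on flox array 4 was at 8.59, below the other flox arrays by 0.928 of the whole range of the group. Ctsz on flox array 4 was at 10.41, by 0.929 of the range. Ctsh on WT array 3 was at 8.90, by 0.847 of a range that was only 0.164 log2. The 2 flox flags fall on the same array.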

How the results depend on the processing

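Over all 18 alternatives the median difference of the 10 genes kept its sign, between 0.07 (flox array 1 left out) and 0.17 (flox array 4 left out), and from 0.11 to 0.12 over the settings that keep all arrays. The count of members past the adjusted threshold was 0 throughout except without flox array 4, so that leaving out each array gave 0 to 1, and the count at an unadjusted p under 0.05 gave 0 to 6. That count was 1, always Ctss, with no filter on low rows, with the limma trend and robust prior, and with sample number as a replicate block (limma p 0.0308 for Ctss, adjusted 0.871). The block changed no other call of a member. Ctsd was -0.0048 with quantile normalization, and -0.025 to 0.031 over the left-out arrays. Ctsk was 0.0083 on the linear scale, and -0.12 to 0.14 over the left-out arrays. Over all genes the count at an unadjusted p under 0.05 was 569 with all arrays, 3012 when flox array 4 was left out, 245 and 278 when flox array 2 and WT array 1 were, and 929 with numbers 1 and 2 against 3 and 4 as a term. The cause of these changes was not tested.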

Other observations

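Marker lists of other cells that the muscle could hold were set beside the proteases. Dendritic cell markers were higher in flox for 5 of 6 tested genes, at a median of 0.17 log2, and their list mean had an r of 0.68 with the protease mean over the 8 arrays. T and NK cell markers were higher for 5 of 6, at a median of 0.18 log2 (r = 0.85), and endothelial markers for 5 of 5, at 0.09 log2 (r = 0.72). Only 5 of 11 neutrophil markers were above the filter, with a median of -0.07 log2 and 2 higher in flox (r = 0.63). Fibroblast markers had a median of 0.06 log2, with 5 of 8 higher in flox (r = 0.84). Mature fast fibre markers had a median of -0.01 log2, with 1 of 7 higher (r = -0.51). The osteoclast markers had a median of 0.03 log2, with 5 of 8 higher (r = 0.04). Regenerating fibre markers were higher in flox for 5 of 5, at 0.10 log2, with an r of -0.30 with the protease mean. Keratinocyte markers were lower in flox for 3 of 3, at a median of -0.43 log2, with WT array 4 at 1.42 in the list mean and the other arrays at 0.06 or below.

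The differences of the proteases were also unequal by sample number. Among samples numbered 1 and 2, all 10 genes had a higher mean in flox, with a median difference of 0.22 log2. Among samples numbered 3 and 4, 6 of 10 did, with a median of 0.03 log2. Ctsc differed by 0.41 log2 among numbers 1 and 2 and by -0.12 log2 among numbers 3 and 4. The labels do not say what a number stands for, and with 2 arrays per genotype in each part the difference was not tested.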
